A study of Mus musculus with 12 samples.

Results

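The Trbv13 family is a group of 3 variable (V) genes of the mouse T cell receptor β chain, Trbv13-1, Trbv13-2 and Trbv13-3, named V13-1, V13-2 and V13-3 in the clonotype lists and known in the older nomenclature as Vβ8.3, Vβ8.2 and Vβ8.1. A clonotype was a listed combination of V region, joining (J) region and CDR3 nucleotide sequence, and a member clonotype was one of the β chain (TRBC) whose V region was 1 of these 3 names alone. This gave 160735 family clonotypes of 968766 TRBC clonotypes over 12 libraries, with 278738 of 1791590 unique molecular identifiers (UMIs, each marking 1 cDNA molecule). V13-1 had 51045 of these clonotypes, V13-2 had 60882 and V13-3 had 48808. No TRBC entry named several members and nothing else, and 33 entries with 36 UMIs that named a member together with other Trbv genes were left out. Another 2338 entries carried the same short names in the α chain, where they stand for Trav genes, and were not counted.

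The libraries were made from CD8+ T cells of tumors, spleens and tumor-draining lymph nodes (tdLNs) of WT mice, isolated with CD8 microbeads, and each mixed the RNA of 3 mice of 1 treatment. The paper's resource list gives the Q1-2 model of head and neck squamous cell carcinoma for them. The titles of the tumor and spleen samples name CD8, and those of the tdLNs do not, although the cell type label does. A clonotype list does not show whether other T cells were present, so purity was not measured. Differences between tissues therefore cannot be told apart from differences in purity. All mice bore tumors and received 3 doses, given 3 days apart at the equivalent of 30 mg/kg, of a control IgG, of IL10-Fc, of an anti-CSF1R antibody (αCSF1R) or of BF10, a fusion protein of a CSF1R-blocking antibody with IL-10. With 1 library for each treatment and tissue there was no test between treatments, and Wilson intervals (95%) cover counting error only, not the spread between mice. Tissues were compared over the 4 treatments by an exact two-sided permutation test that exchanged the tissue labels within each treatment (1296 arrangements), and p was adjusted (Benjamini-Hochberg) over 22 features, namely the family and the 21 Trbv genes with at least 10 clonotypes in every library. The mice of the 4 treatments were separate, but the tissues of 1 treatment came from mice that the labels do not tell apart. Each tissue had a clonotype list of its own, and whether tissues were also processed apart is not stated. A tissue difference cannot be told apart from a difference in such processing.

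A β chain is assembled from a V, a D and a J segment. The V segment encodes the first 2 loops that contact peptide and MHC, and the third loop, the CDR3, spans the junction, where bases are trimmed and added without template. The Vβ8 chains are known for their use in many responses of laboratory mice, for binding of the superantigen staphylococcal enterotoxin B, and, in the case of Vβ8.2, for pairing with the invariant α chain of natural killer T cells. The share of a V gene among chains therefore combines how often the segment is rearranged, which chains pass thymic selection, and which clones have since expanded.

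The 3 V exons are shown because they are what separates the members in the reads. The genes lie on the plus strand of chromosome 6, with 4927 bases between V13-1 and V13-2 and 8314 between V13-2 and V13-3. The exon sequences (RefSeq, GRCm38) are alike over most of their 294 bases. Capitals mark the bases that differ from both other members, and the last 16 bases are the part of the segment that reaches into the CDR3.
V13-1, chr6:41116175-41116468: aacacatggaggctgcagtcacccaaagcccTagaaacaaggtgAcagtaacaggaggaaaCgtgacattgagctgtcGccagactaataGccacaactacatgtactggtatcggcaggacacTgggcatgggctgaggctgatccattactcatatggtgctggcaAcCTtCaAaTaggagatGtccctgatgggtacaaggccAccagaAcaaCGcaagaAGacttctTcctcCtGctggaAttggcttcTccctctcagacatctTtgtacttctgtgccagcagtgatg
V13-2, chr6:41121539-41121832: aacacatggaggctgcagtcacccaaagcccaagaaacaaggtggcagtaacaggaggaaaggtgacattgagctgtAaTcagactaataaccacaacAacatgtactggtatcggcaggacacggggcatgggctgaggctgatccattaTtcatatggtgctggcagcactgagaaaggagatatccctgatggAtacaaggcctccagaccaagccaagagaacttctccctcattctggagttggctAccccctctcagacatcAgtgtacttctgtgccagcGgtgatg
V13-3, chr6:41130292-41130585: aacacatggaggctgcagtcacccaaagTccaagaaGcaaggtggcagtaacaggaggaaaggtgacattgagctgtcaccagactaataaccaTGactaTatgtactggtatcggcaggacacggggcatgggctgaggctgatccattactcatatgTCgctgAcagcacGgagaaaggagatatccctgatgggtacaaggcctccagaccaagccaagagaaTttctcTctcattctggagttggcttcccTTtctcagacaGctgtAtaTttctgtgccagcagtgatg
V13-1 and V13-2 were 88.8% identical over the exon, V13-1 and V13-3 86.1%, and V13-2 and V13-3 91.8%. V13-1 had 25 bases of its own, V13-3 had 16 and V13-2 had 8. The 16 bases at the CDR3 end were the same in V13-1 and V13-3, and V13-2 differed from both at 1 base. A CDR3 by itself can therefore separate V13-2 from the other members, whereas V13-1 and V13-3 can be told apart only by bases further upstream. Among the V13-2 clonotypes, 84.6% ± 1.41 (SD, n = 12 libraries) began with the first 12 bases of their own segment end and 0.0937% ± 0.189 with those of V13-1 and V13-3. Of V13-1 clonotypes 82.4% ± 3.69 began with the shared V13-1 and V13-3 start, of V13-3 clonotypes 75.9% ± 0.601, and under 0.1% of either, on average, with that of V13-2. The remaining CDR3s had lost some of these bases.

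The family was a smaller part of the TRBC UMIs in tumors than in spleens or tdLNs. In tumors the share was 13.4% for control IgG (95% Wilson interval 13.2% to 13.6%), 14.2% for IL10-Fc (14.0% to 14.4%), 9.91% for αCSF1R (9.59% to 10.2%) and 14.5% for BF10 (14.3% to 14.6%). In spleens it was 15.8% for control IgG, 14.6% for IL10-Fc, 14.4% for αCSF1R and 17.6% for BF10. In tdLNs it was 16.9% for control IgG, 16.8% for IL10-Fc, 16.0% for αCSF1R and 16.9% for BF10. The tumor library was the lowest of the 3 tissues in each treatment, and the 4 tdLN libraries lay above the 4 tumor libraries without overlap. The tissue means were 12.99% ± 2.11 in tumors, 15.6% ± 1.45 in spleens and 16.7% ± 0.437 in tdLNs (SD, n = 4 libraries), with an exact permutation p = 0.00926 and an adjusted p = 0.0340. Of the 22 features tested 7 passed on this measure, or 31.8%, so a tissue difference was common among Trbv genes.

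**Figure D1:**
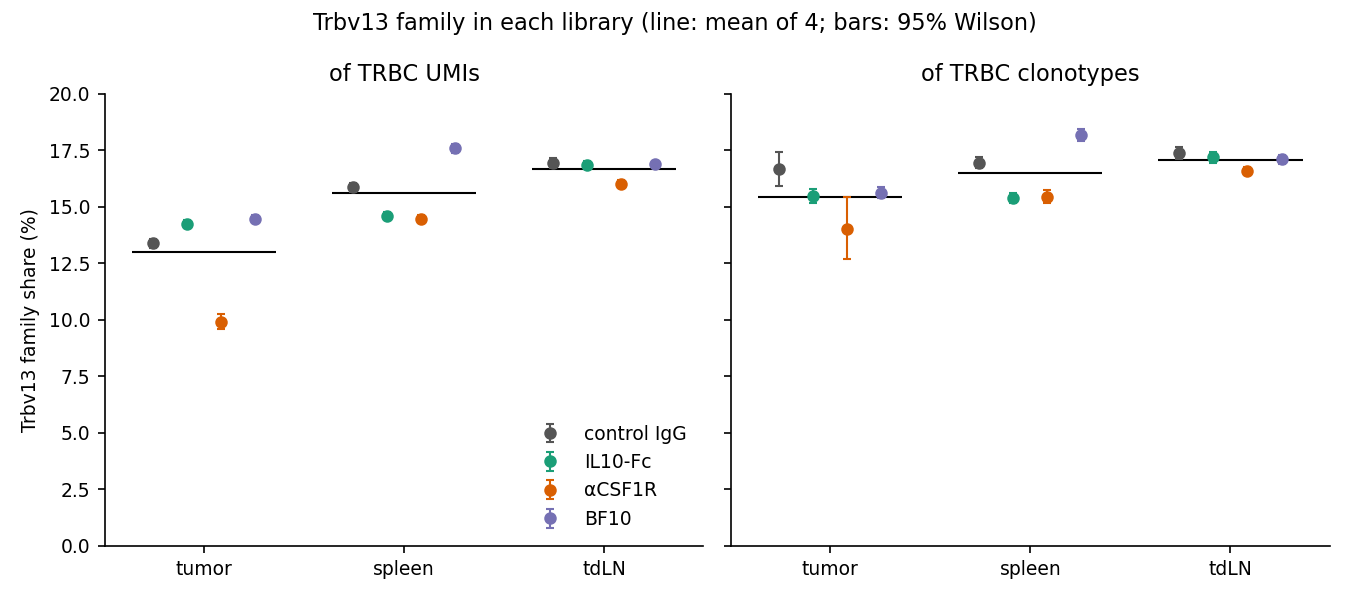
Share of the Trbv13 family among TRBC UMIs (left) and TRBC clonotypes (right), in percent, for each of the 12 libraries, with tissue on the x axis and treatment by colour. Points are libraries with 95% Wilson intervals and lines are means of the 4 libraries of a tissue. On the left the tumor points sit between 9.91% and 14.5%, and the tdLN points between 16.0% and 16.9%.

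Counted once per clonotype, the family differed less between tissues. Its share of TRBC clonotypes was 15.4% ± 1.09 in tumors, 16.5% ± 1.33 in spleens and 17.05% ± 0.343 in tdLNs (SD, n = 4), with an exact permutation p = 0.0694 and an adjusted p = 0.109. By library it was 16.7%, 15.5%, 14.0% and 15.6% in tumors, 16.9%, 15.4%, 15.4% and 18.2% in spleens, and 17.4%, 17.2%, 16.6% and 17.1% in tdLNs, each in the order control IgG, IL10-Fc, αCSF1R and BF10. The αCSF1R tumor library, with 349 family clonotypes of 2493, had the widest interval, 12.7% to 15.4%. On the clonotype measure too 7 of 22 features passed, or 31.8%.

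The UMI result lay close to the threshold and moved with large clonotypes. Leaving out each clonotype with at least 0.1% of the TRBC UMIs of its library raised the tumor share to 15.3% for control IgG, 14.4% for IL10-Fc, 14.1% for αCSF1R and 14.5% for BF10, and the adjusted p became 0.0573. This removed 50.2% of TRBC UMIs from the control IgG tumor and 61.5% from the αCSF1R tumor. The family's part of these was 5.75% and 4.47% of TRBC UMIs. From the spleen and tdLN libraries it removed at most 0.500%. The UMI result also passed the threshold no longer with UMIs of at least 7 reads (adjusted p = 0.0815), with clonotypes of at least 2 UMIs (0.0873) and with equal UMI totals (0.0582), all by the same exact permutation test. The order tdLN, spleen, tumor of the 3 means was the same in each of these settings. Reads per UMI differed between libraries. Of TRBC UMIs, 10.4% in the αCSF1R tdLN and 8.26% in the BF10 tdLN had at least 7 reads, against 35.3% to 69.6% elsewhere. In the same tdLNs 79.8% and 81.6% of family clonotypes had a single UMI, against 20.2% to 58.9% elsewhere. Clonotype counts and the settings above depend on this, and its part was not tested.

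The order of the 12 UMI shares ran from the BF10 spleen library at the top to the αCSF1R tumor library at the bottom. The tdLN libraries of control IgG, BF10 and IL10-Fc came next, with intervals that overlapped one another but not that of the first. The tdLN library of αCSF1R and the spleen library of control IgG overlapped as well. The spleen libraries of IL10-Fc and αCSF1R and the tumor libraries of BF10 and IL10-Fc came next, and neighbours among them could not be separated by their counting intervals. The control IgG tumor library lay below these, clear of both neighbours.

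V13-2, the most used member, had higher UMI shares in tdLNs than in spleens or tumors. The tumor was below the spleen except with IL10-Fc. Its share of TRBC UMIs was 7.07%, 6.94%, 6.36% and 6.58% in tdLNs, 5.75%, 5.17%, 5.11% and 6.23% in spleens, and 5.46%, 5.25%, 2.71% and 5.05% in tumors, in the order control IgG, IL10-Fc, αCSF1R and BF10. All 4 tdLN libraries lay above all others. The means were 6.74% ± 0.325 in tdLNs, 5.56% ± 0.527 in spleens and 4.61% ± 1.28 in tumors (SD, n = 4), with an exact permutation p = 0.00926 and an adjusted p = 0.0340. Without the clonotypes of at least 0.1% of TRBC UMIs the means were 6.72% in tdLNs, 5.57% in spleens and 5.65% in tumors. The adjusted p was then 0.0736 in the exact permutation test. Counted by clonotype the tdLN library of V13-2 was above the spleen library in 4 of 4 treatments, at a mean of 6.81% ± 0.348 against 5.94% ± 0.538, and tumors were at 6.01% ± 0.693. This did not pass (exact permutation p = 0.111, adjusted p = 0.144).

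V13-1 showed the tissue difference by clonotypes and not by UMIs. Its share of TRBC clonotypes was 5.35%, 5.53%, 5.54% and 5.88% in tdLNs, 5.08%, 4.66%, 4.61% and 5.63% in spleens, and 4.76%, 4.67%, 4.21% and 4.84% in tumors, in the same order of treatments. The tdLN library was the highest of the 3 tissues in each treatment, and the 4 tdLN libraries did not overlap with the 4 tumor libraries. The means were 5.58% ± 0.222, 4.99% ± 0.471 and 4.62% ± 0.281 (SD, n = 4), with an exact permutation p = 0.00926 and an adjusted p = 0.0291. By UMIs the means were 5.45% ± 0.275 in tdLNs, 4.75% ± 0.584 in spleens and 4.95% ± 0.572 in tumors (exact permutation p = 0.315, adjusted p = 0.385). The tumor libraries of control IgG, at 5.22%, and αCSF1R, at 5.62%, were the only 2 of 12 in which the UMI share of V13-1 exceeded its clonotype share, and each held 1 V13-1 clonotype with over 1% of all TRBC UMIs, described further on. Without the clonotypes of at least 0.1% of TRBC UMIs, the UMI share of V13-1 was 4.29% in tumors, 4.76% in spleens and 5.46% in tdLNs on average, with an adjusted p = 0.0255 in the exact permutation test.

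V13-3 ran the other way between the lymphoid organs. Its share of TRBC clonotypes was 5.65%, 5.26%, 5.31% and 5.97% in spleens, 4.85%, 4.61%, 4.61% and 4.59% in tdLNs, and 4.87%, 5.21%, 3.89% and 5.24% in tumors, again from control IgG to BF10. The spleen library was above the tdLN library and above the tumor library in 4 of 4 treatments, and spleens and tdLNs did not overlap. The means were 5.55% ± 0.330, 4.66% ± 0.126 and 4.80% ± 0.630 (SD, n = 4), with an exact permutation p = 0.0417 and an adjusted p = 0.0705, which did not pass. In the same exact permutation test it passed with clonotypes of at least 2 UMIs (adjusted p = 0.0437), with CDR3s 1 base apart merged (0.0437) and without the clonotypes of at least 0.1% of TRBC UMIs (0.0463). By UMIs the means were 5.30% ± 0.353 in spleens, 4.46% ± 0.189 in tdLNs and 3.43% ± 1.56 in tumors (exact permutation p = 0.0602, adjusted p = 0.166). The wide spread in tumors came from the values of 2.69% for control IgG and 1.59% for αCSF1R beside 4.60% for IL10-Fc and 4.83% for BF10.

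**Figure D2:**
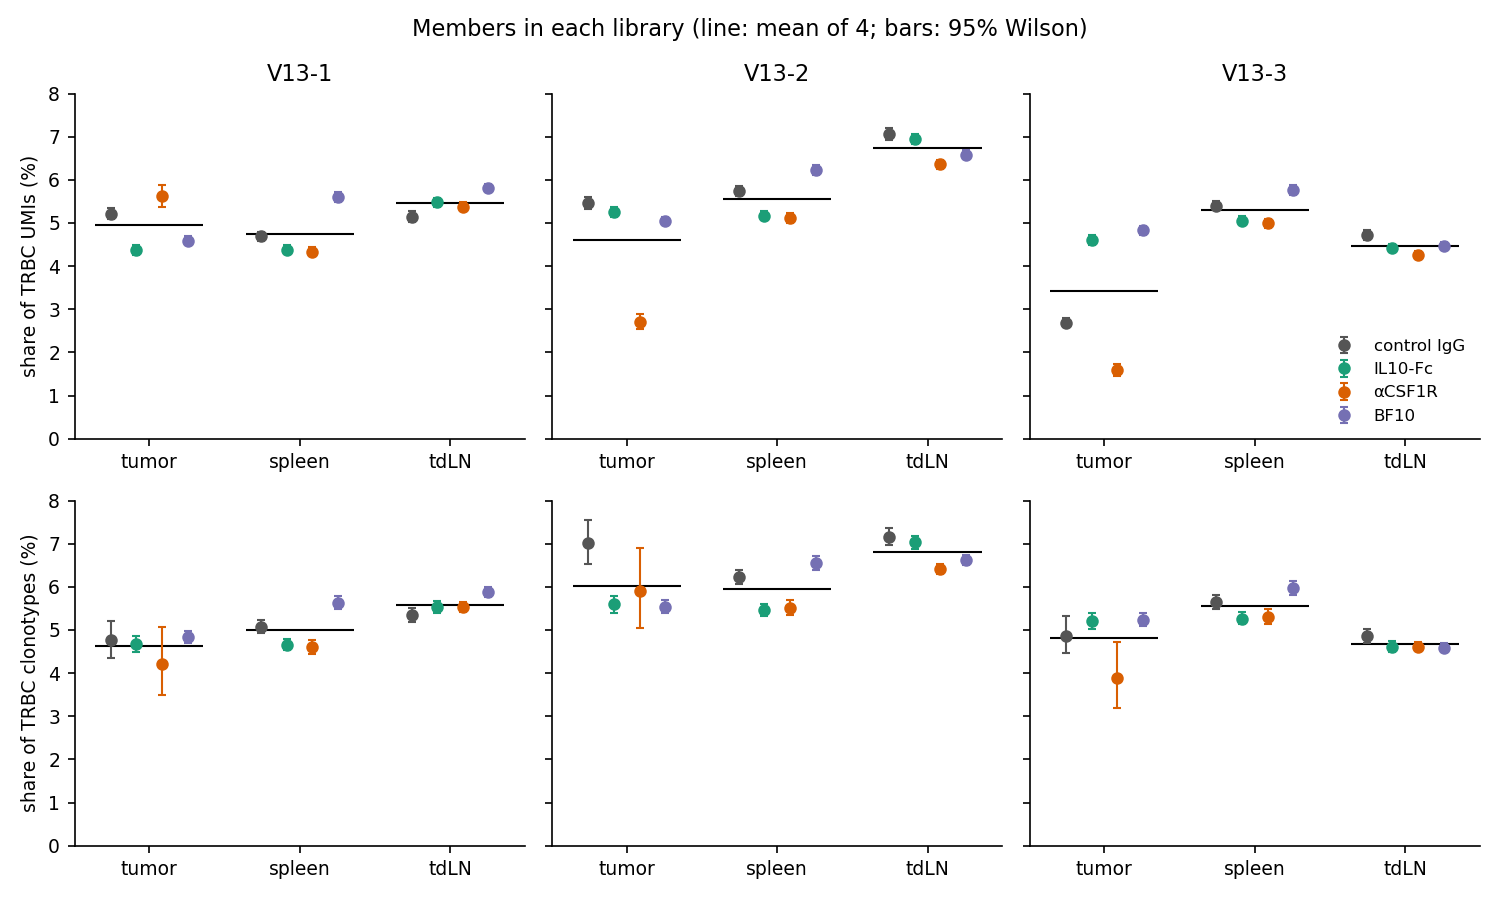
Share of V13-1, V13-2 and V13-3 among TRBC UMIs (upper row) and TRBC clonotypes (lower row), in percent, by tissue and treatment. Points are libraries with 95% Wilson intervals and lines are means of 4 libraries. V13-2 and V13-1 are highest in tdLNs by clonotypes, at means of 6.81% and 5.58%, and V13-3 is highest in spleens, at 5.55%.

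The members therefore divided the family differently in the 2 lymphoid organs. V13-2 was the largest member by clonotypes in 12 of 12 libraries and by UMIs in 11 of 12, the exception being the αCSF1R tumor. The second place was taken by V13-3 in all 4 spleen libraries and by V13-1 in all 4 tdLN libraries. V13-3 made up 33.7% ± 0.715 of family clonotypes in spleens (range 32.9% to 34.4%) and 27.4% ± 0.605 in tdLNs (26.8% to 28.0%; SD, n = 4). V13-2 made up 36.02% ± 0.541 in spleens and 39.9% ± 1.36 in tdLNs, and V13-1 made up 30.3% ± 0.510 and 32.7% ± 1.56. These shares are parts of 1 whole and are given as a description, with no test.

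Tumor libraries did not share 1 make-up. V13-3 made up 29.2% (95% Wilson interval 27.0% to 31.5%) of family clonotypes for control IgG and 27.8% (23.4% to 32.7%) for αCSF1R, and 33.7% (32.7% to 34.7%) for IL10-Fc and 33.5% (32.8% to 34.3%) for BF10. V13-2 made up 42.2% for control IgG and 42.1% for αCSF1R, and 36.1% for IL10-Fc and 35.5% for BF10. The IL10-Fc and BF10 values lay within 1 percentage point of the spleen range for each member, and those of control IgG and αCSF1R lay further from it for V13-2 and V13-3. The share of UMIs in γ and δ chains, the mark of another T cell type, moved with this: it was 4.27% for control IgG and 8.93% for αCSF1R tumors, and 0.873% for IL10-Fc and 0.898% for BF10 tumors, with 0.677% to 2.30% in spleens and 4.96% to 6.34% in tdLNs. Its part in the make-up was not tested. As in any bulk library, fewer cells with a receptor and less receptor RNA per cell cannot be told apart.

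**Figure D3:**
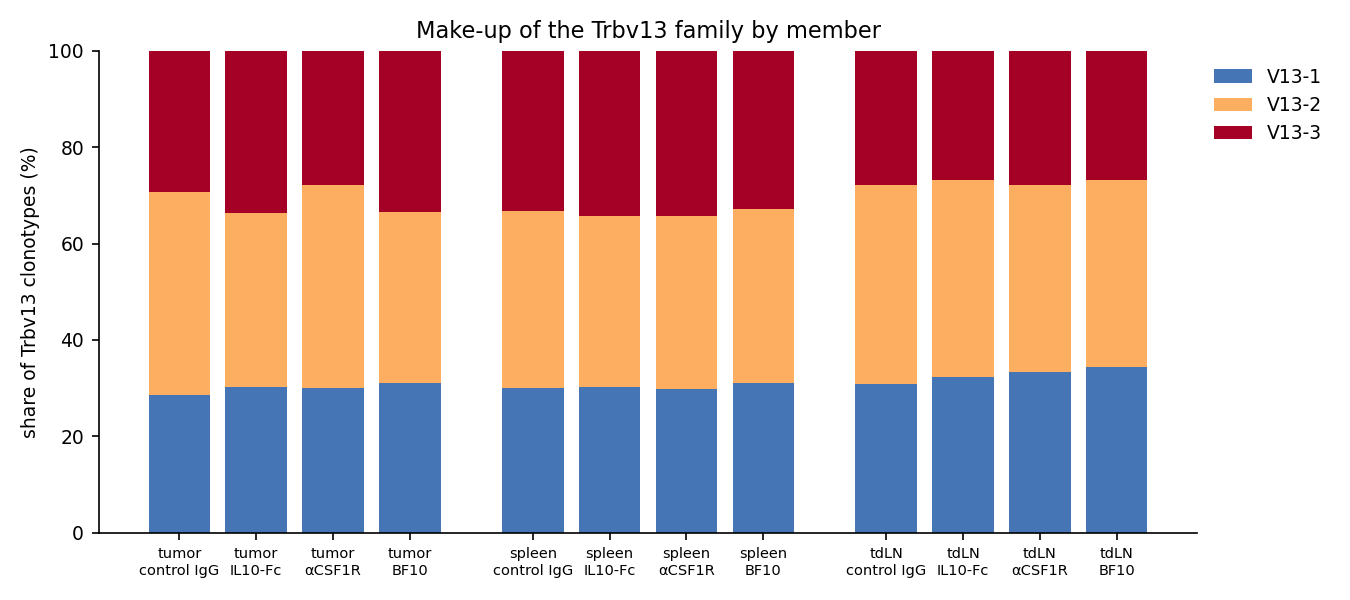
Make-up of the Trbv13 family by member, as percent of the family's clonotypes, in each library (x axis, tissue and treatment). V13-3 takes 32.9% to 34.4% in the spleen bars and 26.8% to 28.0% in the tdLN bars.

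Among treatments, the αCSF1R tumor library had the lowest family share of all 12. Its share of TRBC UMIs was 3.46 percentage points below that of control IgG (95% interval of the difference -3.84 to -3.07, counting error only). IL10-Fc was 0.854 points above control IgG (0.573 to 1.13) and BF10 was 1.10 points above (0.833 to 1.36). Without the clonotypes of at least 0.1% of TRBC UMIs the last 2 differences turned to -0.855 and -0.754 points, and that of αCSF1R shrank to -1.18. Without the leading family clonotype of each library the 3 differences were 1.80 points for IL10-Fc, -5.55 for αCSF1R and 2.23 for BF10. By clonotypes all 3 treated tumor libraries lay below control IgG, by 1.19 points for IL10-Fc (95% interval -1.9996 to -0.381), 2.66 for αCSF1R (-4.22 to -1.11) and 1.04 for BF10 (-1.83 to -0.256). The 32784 TRBC UMIs of the αCSF1R tumor library were the fewest of the 12, the others having 104036 to 210616.

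In spleens the differences from control IgG did not follow those in tumors. The BF10 spleen library was 1.73 points above that of control IgG by UMIs (95% interval 1.46 to 1.99), with all members higher: V13-1 by 0.900, V13-2 by 0.478 and V13-3 by 0.351 points. The spleen libraries of IL10-Fc and αCSF1R were 1.24 and 1.41 points below control IgG. In tdLNs the family shares of IL10-Fc and BF10 differed from that of control IgG by -0.100 (-0.369 to 0.169) and -0.0692 points (-0.333 to 0.195), with intervals that held 0, and αCSF1R was 0.926 points below (-1.19 to -0.666). With 1 library per treatment and tissue, none of these differences can be set against the spread between mice.

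The tumor libraries of control IgG and αCSF1R held family clonotypes of a size seen in no spleen library. Family clonotypes with at least 0.1% of the TRBC UMIs of their library numbered 14 in the control IgG tumor, with 5.75% of its TRBC UMIs between them, 4 in the αCSF1R tumor with 4.47%, 2 in the IL10-Fc tumor with 0.530% and 0 in the BF10 tumor. Over all TRBC clonotypes there were 76 of this size with 50.2% of TRBC UMIs in the control IgG tumor. The αCSF1R tumor had 76 with 61.5%, the IL10-Fc tumor 23 with 5.11% and the BF10 tumor 3 with 0.448%. No spleen library had a family clonotype of this size, and among tdLNs only BF10 had one. Over all TRBC clonotypes the spleens of αCSF1R and BF10 had 1 each, and the tdLNs of control IgG and BF10 had 1 and 4. The 10 largest clonotypes held 39.0% of family UMIs in the control IgG tumor and 49.6% in the αCSF1R tumor, 5.84% for IL10-Fc and 1.66% for BF10. In spleens they held 0.391% to 0.859% and in tdLNs 0.963% to 2.32%. Over all TRBC clonotypes outside the family the 10 largest held 31.9%, 34.8%, 3.44% and 1.03% of UMIs in tumors of control IgG, αCSF1R, IL10-Fc and BF10, which puts the 4 treatments in the same order.

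**Figure D4:**
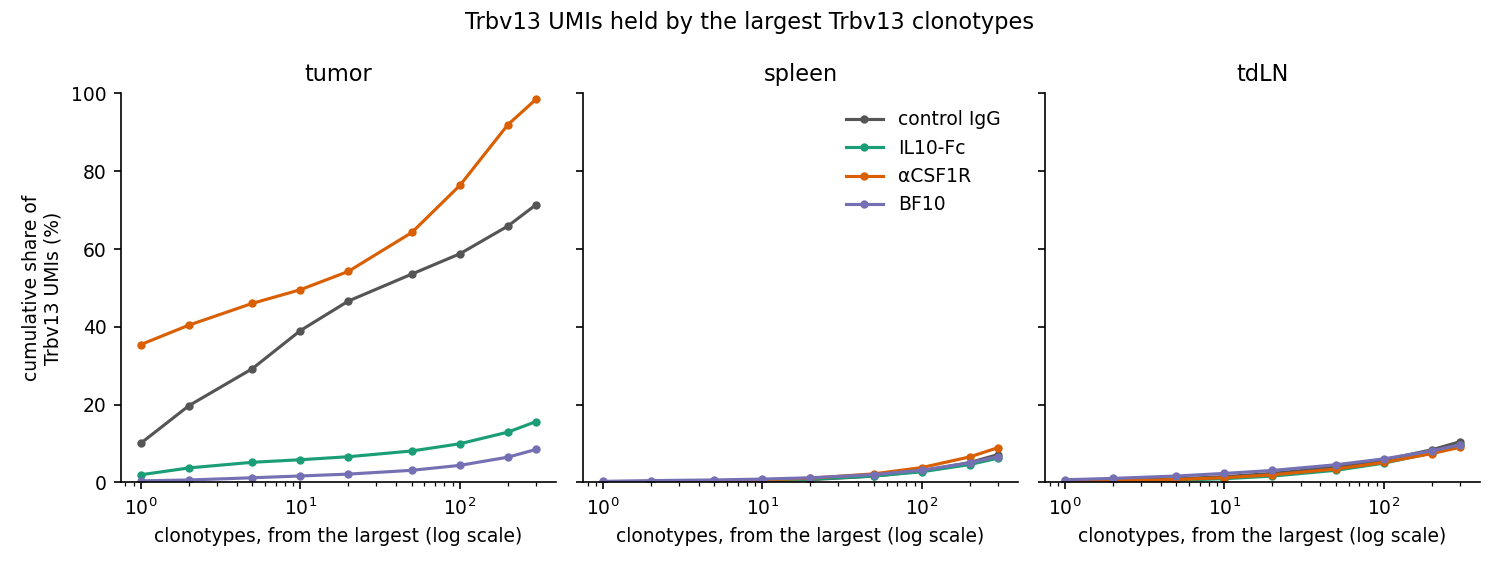
Cumulative share of Trbv13 UMIs, in percent, held by the largest Trbv13 clonotypes, counted from the largest (log axis), in each tissue and treatment. In tumors the 10 largest hold 49.6% (αCSF1R) and 39.0% (control IgG), and 5.84% (IL10-Fc) and 1.66% (BF10).

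The CDR3s of the leading clonotypes are shown to let the reader see how the large tumor clones were built. Capitals mark the bases between the longest match to the V segment's end and the longest match to the J segment's start, that is, D segment and non-templated bases together.
control IgG tumor, V13-1 with Trbj2-5: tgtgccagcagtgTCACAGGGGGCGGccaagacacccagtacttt
control IgG tumor, V13-2 with Trbj2-4: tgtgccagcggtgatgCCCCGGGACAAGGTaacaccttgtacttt
αCSF1R tumor, V13-1 with Trbj1-2: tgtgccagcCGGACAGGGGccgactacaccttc
IL10-Fc tumor, V13-2 with Trbj2-7: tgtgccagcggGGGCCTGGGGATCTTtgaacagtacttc
IL10-Fc tumor, V13-1 with Trbj1-6: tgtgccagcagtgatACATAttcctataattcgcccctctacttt
BF10 tumor, V13-1 with Trbj2-4: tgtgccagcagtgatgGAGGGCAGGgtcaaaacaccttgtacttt
The first had 1404 UMIs, or 1.35% of TRBC UMIs (95% Wilson interval 1.28% to 1.42%), and the second, the runner-up of the same library, had 1341, or 1.29% (1.22% to 1.36%). The αCSF1R clonotype had 1152 UMIs, or 3.51% (3.32% to 3.72%), which was 35.5% of all family UMIs in that library. It kept only 9 bases of the V segment, and its CDR3 of 33 bases was the shortest of the 6. The IL10-Fc leader had 365 UMIs, or 0.281% (0.253% to 0.311%), and the next had 325, or 0.250%. The BF10 leader had 103 UMIs, or 0.0588% (0.0485% to 0.0713%). V13-1 thus supplied the leading family clonotype in 3 of 4 tumors, although it was never the largest member by clonotypes.

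Most of these tumor clonotypes were also listed in another tissue of the same treatment, at low counts. The control IgG leader had 7 UMIs in the control IgG tdLN and was listed nowhere else, and the runner-up was listed in the tumor alone. The αCSF1R leader had 2 UMIs in the αCSF1R spleen. The IL10-Fc leader had 4 UMIs in the IL10-Fc tdLN, and the next one had 26 there and 1 in the IL10-Fc spleen. The BF10 leader had 21 UMIs in the BF10 tdLN. The αCSF1R runner-up, not printed, had 162 UMIs in the tumor, or 0.494% of TRBC UMIs. It had 2 UMIs in the BF10 tdLN, from other mice, and was listed nowhere else. The BF10 runner-up, not printed, had 56 UMIs in the tumor, 2 in the BF10 spleen and 5 in the BF10 tdLN. Of the 50 largest family clonotypes of each tumor, the tdLN of the same treatment listed 9 for control IgG, 18 for IL10-Fc, 6 for αCSF1R and 25 for BF10. The tdLNs of other treatments, which come from other mice, listed 1 to 3 for control IgG, 6 to 10 for IL10-Fc, 1 to 6 for αCSF1R and 10 to 16 for BF10. The tdLN of the same treatment was thus the highest in 3 of 4 tumors and level with the BF10 tdLN for αCSF1R. The spleen of the same treatment listed 4 for control IgG, 13 for IL10-Fc, 8 for αCSF1R and 15 for BF10, in each case more than any of the spleens of other treatments, which listed 0 to 3, 4 to 7, 2 to 3 and 10 to 13. The libraries differed in depth and in the size of their 50 largest clonotypes, so these counts are not comparable between tumors. They were not made for clonotypes outside the family, so whether they are particular to the family is not known.

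In lymphoid organs the leading family clonotypes were small. Those of spleens had 13 (control IgG), 26 (IL10-Fc), 22 (αCSF1R) and 75 (BF10) UMIs, and those of tdLNs had 52, 45, 85 and 237. The 3 with a feature of their own are printed, with capitals as before.
BF10 spleen, V13-1 with Trbj1-1: tgtgccagcagGaacacagaagtcttcttt
control IgG tdLN, V13-3 with Trbj2-4: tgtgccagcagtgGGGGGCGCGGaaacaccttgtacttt
BF10 tdLN, V13-2 with Trbj2-1: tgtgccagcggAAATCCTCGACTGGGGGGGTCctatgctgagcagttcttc
The first had a single base between V and J matches. The second was found in all 3 tissues of control IgG mice, with 86 UMIs in the tumor, 6 in the spleen and 52 in the tdLN, and in no other treatment. The third was listed in the BF10 tdLN alone, at 0.116% of TRBC UMIs (95% Wilson interval 0.102% to 0.132%), with 21 bases between its V and J matches.

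Most family clonotypes occurred in 1 library. Of 144402 distinct clonotypes, 133617 (92.5%) were listed once, 7696 (5.33%) in 2 libraries, and 2 in all 12. The share listed in at least 2 libraries was 8.10% for V13-2, 7.40% for V13-1 and 6.77% for V13-3. The same counts were not made over all TRBC clonotypes, so whether they are particular to the family is not known. By library, 20.2% to 81.6% of family clonotypes had a single UMI, and such clonotypes are easily missed in another library. The clonotypes listed in all 12 libraries are shown with 1 of the 7 listed in 10, the one with the highest summed UMI share (none was listed in 11), with capitals as before.
V13-3 with Trbj2-3, 12 libraries: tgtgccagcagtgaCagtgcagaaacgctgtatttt
V13-2 with Trbj2-3, 12 libraries: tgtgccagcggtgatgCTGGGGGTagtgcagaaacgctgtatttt
V13-2 with Trbj2-7, 10 libraries: tgtgccagcggtgatgaacagtacttc
The first had 106 UMIs over the libraries, between 1 and 37 in each, and 1 base that neither segment's end supplies. The second had 79 UMIs, between 1 and 12 in each, and 8 such bases. The last had 60 UMIs and none: its V end runs straight into its J start. Clonotypes listed in 1 library had 10.3 bases on average between the V and J matches, those in 2 to 3 libraries 7.30, those in 4 to 6 libraries 5.50 and those in 7 to 12 libraries 3.99, where there were 157.

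The J segments of the family were close to those of other β chains, with fewer from the second cluster. Trbj2 segments took 66.2% ± 1.17 of family clonotypes and 69.0% ± 2.21 of the other TRBC clonotypes (SD, n = 12), lower in the family in 12 of 12 libraries by 2.74 points on average (range 0.309 to 4.27). Trbj2-7 was the most used, at 21.0% ± 0.880 of family clonotypes beside 20.8% ± 0.849 elsewhere. Trbj1-2 stood out upward, at 7.02% ± 1.04 beside 5.66% ± 0.446, higher in 11 of 12 libraries. Trbj2-5 stood out downward, at 9.67% ± 0.294 beside 10.9% ± 0.557, lower in 12 of 12. The members were alike at Trbj1-2, each being above the other chains in 11 of 12 libraries, and differed at Trbj1-1, where V13-1 was at 10.8%, V13-3 at 9.06% and V13-2 at 7.80%.

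**Figure D5:**
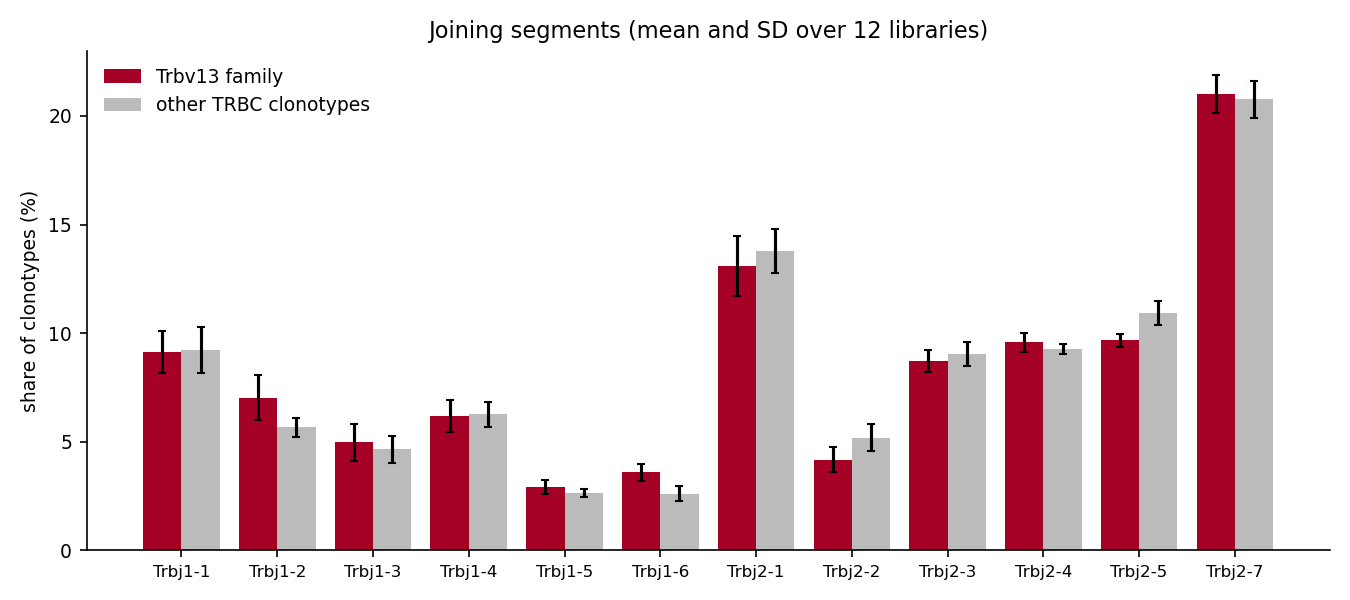
Share of each Trbj segment, in percent of clonotypes, in the Trbv13 family and in all other TRBC clonotypes. Bars are means and error bars SDs over 12 libraries. Trbj2-7 is highest in both, at 21.0% and 20.8%, and Trbj1-2 is higher in the family, at 7.02% and 5.66%.

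No tissue difference in the Trbj2 share of the family was detected. This share of family clonotypes was 66.2% ± 1.23 in tumors, 66.8% ± 0.756 in spleens and 65.7% ± 1.44 in tdLNs (SD, n = 4; exact permutation p = 0.315, adjusted p = 0.554). On this measure 0 of 22 features passed (0%) after adjustment, and 0 had an unadjusted p under 0.05 in the exact permutation test. Single Trbj segments were not tested by tissue. Those whose spleen and tdLN libraries did not overlap, named after their values were seen, were Trbj1-2, at 7.05% to 7.36% of family clonotypes in spleens and 6.15% to 6.42% in tdLNs, Trbj2-1, at 12.8% to 13.8% and 11.5% to 12.4%, Trbj1-3, at 4.44% to 5.09% and 5.67% to 6.27%, Trbj1-6, at 2.96% to 3.51% and 3.56% to 3.83%, and Trbj1-4, at 5.84% to 6.299% and 6.301% to 7.40%. The first 2 were thus higher in spleens and the other 3 in tdLNs. The mean share among the other TRBC clonotypes moved the same way at each of these segments. The family's mean gap to them, in spleens and tdLNs, was 1.49 and 0.898 points for Trbj1-2 and -1.04 and -0.875 for Trbj2-1. That gap was 0.528 and 0.783 for Trbj1-3, 0.970 and 0.933 for Trbj1-6, and 0.0501 and 0.0108 for Trbj1-4.

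Family CDR3s were shorter than those of the other β chains by a fraction of an amino acid. Their mean length was 13.8 amino acids ± 0.0521 over the 12 libraries, beside 13.9 ± 0.0454 for the others, and the family was shorter in 12 of 12 libraries. The shortening lay with V13-3, at 13.6 amino acids, and V13-1, at 13.7, each shorter than the other chains in 12 of 12 libraries, whereas V13-2, at 13.9, was shorter in 4 of 12. The median was 14 in every library for the family and for the others alike. Lengths of the others spread more widely, with an SD over clonotypes of 3.71 in the control IgG tumor, beside 1.63 for the family. A few long entries can therefore widen the gap between the means, and their part was not tested. CDR3s of at most 11 amino acids made up 7.64% ± 1.78 of family clonotypes and 5.41% ± 0.666 of the others. Those of at least 17 amino acids made up 2.59% ± 0.279 and 2.62% ± 0.296. Among the 21 Trbv genes tested V13-3 had the fifth shortest mean, V13-1 the eighth and V13-2 the fourteenth. By tissue the family mean was 13.74 in tumors, 13.77 in spleens and 13.82 in tdLNs (exact permutation p = 0.111, adjusted p = 0.244), and 0 of 22 features passed (0%) on this measure, with 6 at an unadjusted p under 0.05 in the exact permutation test.

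The amount of V segment kept at the junction followed the same order. All 16 germline bases of the CDR3 end were kept in 32.97% ± 2.31 of V13-2 clonotypes, 26.6% ± 2.65 of V13-1 and 16.5% ± 0.918 of V13-3 (SD, n = 12). V13-2 was the highest and V13-3 the lowest in 12 of 12 libraries, although the V13-1 and V13-3 ends printed above are the same sequence. The mean length of the match was 14.0, 13.6 and 13.2 bases, in that order. The J matches were 17.8, 17.8 and 18.1 bases long, and 9.93, 9.76 and 9.65 bases lay between the matches.

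The other Trbv genes whose share of TRBC clonotypes followed that of the family most closely over the 12 libraries were V4 (Pearson r = 0.844), V1 (0.729) and V31 (0.593). The points share libraries and each share is part of the same total, and these values are given as a description. The members were less alike among themselves: r was 0.640 for V13-1 with V13-2, 0.130 for V13-1 with V13-3 and -0.212 for V13-2 with V13-3, on the same measure.

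Other β segments known to bind staphylococcal enterotoxin B did not move as a group with the family. V29 had its lowest clonotype shares in tdLNs, 7.82% to 8.38%, where the family was high, and 9.82% to 14.2% in spleens (exact permutation p = 0.0972, adjusted p = 0.134). Its tumor values were 8.46% for control IgG and 9.43% for αCSF1R, and 14.0% for both IL10-Fc and BF10. V26 was at 3.49% to 4.66% of clonotypes in tdLNs and 2.44% to 3.07% in spleens (exact permutation p = 0.0324, adjusted p = 0.0594). V24 was at 0.108% to 0.201% in all libraries, with 5 clonotypes in the αCSF1R tumor, and was not tested. Of this list of 3 genes, 0 of the 2 tested passed by clonotypes or by UMIs, and 1 had an unadjusted p under 0.05 in the exact permutation test, V26 by clonotypes. Over all features 7 of 22 (31.8%) passed on each measure, and 13 of 22 had an unadjusted p under 0.05 by clonotypes in the same exact permutation test.

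The pairing of Vβ8.2 with the invariant α chain of natural killer T cells made that chain a marker to check. TRAC clonotypes with Trav11 and Traj18 held 0.0178% to 0.586% of TRAC UMIs, with 0.0178% to 0.114% in tumors, and Trav1 with Traj33, the α chain of mucosal-associated invariant T cells, held at most 0.0817%. V13-2 made up 2.71% to 7.07% of TRBC UMIs in the same libraries. Chains were sequenced apart, so which β chains paired with these α chains was not measured.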

How the data were processed

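TCR libraries were made from equal amounts of CD8+ T cell RNA with a Qiagen kit that tags each cDNA with a UMI, and the authors analysed the reads in Qiagen's immune repertoire portal, which assigned V region, J region and CDR3. The deposited counts are UMIs per clonotype with at least 3 reads and with higher minimums up to 7 reads, not normalized. A fraction column deposited beside the counts equals UMIs over the total of that library and chain and was not tested. The labels name mm10. The germline set and versions of the portal are not given in the sources used here.

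Shares of UMIs with at least 3 reads and of clonotypes were computed per library. TRBC totals ran from 32784 to 210616 UMIs, and 3 UMIs, the smallest share taken as detectable, were 0.00142% to 0.00915% of them. A clonotype list gives no cell numbers, and UMIs of 1 cell are not independent, so intervals cover counting error only. V and J ends were read from GRCm38 (RefSeq) and matched to each CDR3 base by base from either end, so a chance match can lengthen them. CDR3s with an undetermined base (146) were kept. Tissue labels were permuted within treatments as described in the report, with a smallest p of 0.00463. A single pair of tissues could not reach a p under 0.125. The named items were the members, the leading family clonotype of each library, the 3 listed in most libraries (ties by summed UMI share), the Trbj segments used most and differing most from other chains, the 3 Trbv genes most like the family, and the Trbv genes binding staphylococcal enterotoxin B. Runner-up clonotypes of the tumors were added after their values were seen, and those of the control IgG and IL10-Fc tumors were printed. Members and lists were chosen with earlier results of these data known. Only the tissue permutation test was tried on simulated data, with clonotype shares and a set shift in tdLNs but no expanded clones. The other steps were not simulated. Alternatives were UMIs with at least 7 reads, clonotypes with at least 2 UMIs, dropping entries with several V regions, merging CDR3s 1 base apart with a 10-fold difference in UMIs, dropping clonotypes with at least 0.1% of TRBC UMIs, equal UMI totals, weighting by UMIs, and leaving out each treatment or the leading clonotype. Scripts ran under Python 3.11.15 with scipy 1.17.1 for tests, pandas 2.3.3 and numpy 2.4.6 for tables, and matplotlib 3.10.9 for plots.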

Additional observations from a re-analysis of the deposited data

Results flagged for a closer look

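In 3 of 30 sets of 4 libraries, 1 library lay far from the other 3 by Dixon's criterion, which chance meets in about 1 of 20 sets. The family share of TRBC UMIs in tdLNs was 16.0% for αCSF1R, beside 16.8% to 16.9% for the other treatments. The V13-2 share of TRBC UMIs in tumors was 2.71% for αCSF1R, beside 5.05% to 5.46%, and this library had the fewest UMIs of all. The V13-3 share of TRBC clonotypes in tdLNs was 4.85% for control IgG, beside 4.59% to 4.61%.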

How the results depend on the processing

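Differences here are those between the tissues with the highest and lowest mean in the main setting, in percentage points. The same tissues were kept in each alternative, also where another tissue became the highest or lowest. The family's UMI difference, tdLN over tumor, was 3.67 and did not pass with UMIs of at least 7 reads (3.71), clonotypes of at least 2 UMIs (3.45), equal UMI totals (3.58) or without expanded clonotypes (2.07). That of V13-2, 2.12, did not pass with at least 7 reads (1.73), at least 2 UMIs (2.12) or without expanded clonotypes (1.07). The UMI difference of V13-1, 0.704, passed without expanded clonotypes (0.707), and that of V13-3, spleen over tumor, 1.88, passed with at least 7 reads (1.72) and without expanded clonotypes (0.655). For V13-3 clonotypes, spleen over tdLN, 0.883 passed with CDR3s 1 base apart merged (0.882), at least 2 UMIs (0.873) and without expanded clonotypes (0.883). Leaving out 1 treatment, the difference ran from 2.86 to 4.09 for family UMIs, from 1.61 to 2.32 for V13-2 UMIs and from 0.831 to 1.08 for V13-1 clonotypes. None passed there, where the exact permutation p cannot go under 0.0278 and so cannot bear on stability. Of the 22 features, 7 passed by UMIs, against 3 with at least 7 reads, 3 with at least 2 UMIs and 13 without expanded clonotypes. By clonotypes 7 passed, against 13 with at least 2 UMIs, 14 after merging and 11 without expanded clonotypes. Trbj2 share, CDR3 length, family clonotype share and V13-2 clonotype share stayed on their side of the threshold in each alternative run, as did V13-1 clonotypes with all treatments in. By CDR3 length, 3 of 22 features passed with equal UMI totals and 5 when weighted by UMIs, against 0.

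In tumors, the family UMI share of IL10-Fc minus control IgG, 0.854, became 0.313 with at least 7 reads, 0.523 with at least 2 UMIs, 1.80 without the leading clonotype and -0.855 without expanded clonotypes. BF10 minus control IgG, 1.10, became 0.0123, 0.425, 2.23 and -0.754 in the same settings and 0.793 with equal UMI totals. αCSF1R minus control IgG, -3.46, became -5.55 without the leading clonotype and -1.18 without expanded ones. Dropping expanded clonotypes removes 76 of them from each of the control IgG and αCSF1R tumors, 23 for IL10-Fc and 3 for BF10. The cause of the other changes was not tested. Tissues were compared within treatments throughout, and with 1 library for each treatment and tissue no replicate number could serve as a further block.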
